A study of Sus scrofa with 12 samples.

Results

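Interferon-response genes and interferon regulatory factors (IRFs) were followed across 4 treatments of porcine coronary artery smooth muscle cells. The genes were listed by name, with earlier results of these data known. The 41 names stood for 40 genes, because DDX58 and RIGI are the same gene. Of the 40, 37 had a row among the 21153 genes of the count table. IFIT3, OAS1 and XAF1 were not analysed here. After a filter on low counts 32 of the 37 could be tested, among 12444 genes in all. Cells treated with PDGF-BB alone (30 ng/ml) gave 3 libraries, as did cells treated with S100A4 alone (1 µg/ml), with PDGF-BB and S100A4 together at those doses, and with neither as control. Treatment lasted 4 h in every group. All groups were primary cells at passages 6 to 11, labelled as differentiated and contractile, seeded at 60 cells per mm2 and kept in 10% fetal calf serum for 24 h before treatment. The study used cells of 3 animals, but the labels do not tie a library to an animal, so a p-value here describes only how the libraries themselves vary. Replicates carried the numbers 1 to 3 in each group.

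Interferons bind receptors on the cell surface, and JAK kinases attached to those receptors activate STAT proteins. STAT2 joins IRF9 in a complex that switches on interferon-stimulated genes, whose products sense viral RNA, block viral replication or tune the response itself. IRF3 and IRF7 act upstream and start interferon production when RNA or DNA of a virus is sensed, while IRF1 can drive many of the same target genes and IRF2 is known mainly as its antagonist. PDGF-BB is a mitogen that moves smooth muscle cells from a contractile towards a proliferating state, and S100A4 is a calcium-binding protein that cells can also secrete.

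Library totals lay between 21455021 and 32448438 counts, so that 1 CPM (the count relative to library size, after scaling by the TMM method) stood for 21.2 to 31.0 counts. The summed level of 8 smooth muscle markers lay between 8020 and 19892 CPM with PDGF-BB, 7923 and 18685 CPM with S100A4, 7917 and 19238 CPM with both, and 9303 and 21892 CPM in control, although TAGLN was at 3.21 to 7.21 CPM. Most of this sum came from ACTA2, and single markers moved apart. With PDGF-BB, SMTN, LMOD1, MYH11 and MYOCD were lower than in the control of the same number each time. DES was higher, with 452, 125 and 518 CPM, against 269, 87.3 and 420 CPM in control. ACTA2, CNN1 and TAGLN were mixed. In each group the replicate 2 library had the lowest smooth muscle sum. Its sum of 7 fibroblast markers was 916 to 1055 CPM, against 306 to 516 CPM in the other replicates, most of it from LUM. PDGFRA, DPT and PI16 went with LUM and FAP differed little. PDPN was lowest in replicate 2 in every group, with 60.2, 14.3 and 53.6 CPM with S100A4, against 6.40, 1.53 and 5.52 CPM in control. TCF21 was lowest in replicate 2 in every group but S100A4. The replicate 2 sum of the 6 endothelial markers in the table was 140 to 220 CPM, against 55.3 to 157 CPM. The sum of 5 pericyte markers was 312 to 420 CPM in replicate 2, against 1130 to 1918 CPM in the other replicates. CSPG4 and NOTCH3 made up nearly all of this sum, and RGS5 went the other way, with 2.02, 7.40 and 0.355 CPM with PDGF-BB, against 1.65, 6.31 and 0.519 CPM in control. Of the blood cell markers, PTPRC, CD3D, CD3E, CD2 and MS4A1 had no count in any library. The sum of 8 monocyte, macrophage and dendritic cell markers lay between 7.51 and 11.9 CPM, most of it from CD14, which was at 5.48 to 9.58 CPM. T and NK cell markers summed to at most 0.130 CPM and B cell markers to 1.57 to 2.67 CPM, mostly from CD79A.

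Most of the 32 tested genes differed more between replicate numbers than between treatments. Replicate number held a median of 77.5% of the sum of squares of log2 CPM over the 12 libraries for the 32 genes, against 40.9% over all tested genes, and treatment held 16.6%, against 36.9% over all tested genes. In all 4 groups replicate 2 had the lowest value for 23 of the 32 genes, or 71.9%, while 23.9% of all tested genes showed this. Control replicate 3 had the highest value of all 12 libraries for 19 of 32 genes, or 59.4%, against 13.8% of all tested genes. The marker sums above moved with replicate number as well, and their part in these levels was not tested. In bulk RNA, fewer cells of a type and less RNA per cell cannot be told apart.

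IFI6, a mitochondrial interferon-induced protein, had 112, 15.3 and 225 CPM with PDGF-BB, 119, 15.5 and 219 CPM with S100A4, 114, 16.4 and 210 CPM with both, and 109, 17.0 and 234 CPM in control, in replicates 1, 2 and 3. Each replicate thus kept its level through all treatments, and replicate number held 99.9% of the variation of IFI6. In the control libraries the highest value exceeded the lowest 116-fold for MX2, a GTPase that blocks nuclear entry of viruses, with 14.6, 0.305 and 35.3 CPM, and 25.3-fold for ISG15, a ubiquitin-like modifier, with 24.7, 2.92 and 73.9 CPM. Other genes were nearly level across replicates. IRF1, IRF2 and IRF3 differed between the control replicates by 1.11-, 1.14- and 1.05-fold, and treatment held 91.6%, 91.5% and 86.6% of their variation. SP110, a nuclear body protein, was like them, with 83.1% of its variation by treatment. Treatment also held more than replicate number did for DTX3L, IFIH1, TAP1, PARP9, STAT2, CXCL10 and IFIT5, from 74.5% for DTX3L to 37.4% for IFIT5.

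**Figure D1:**
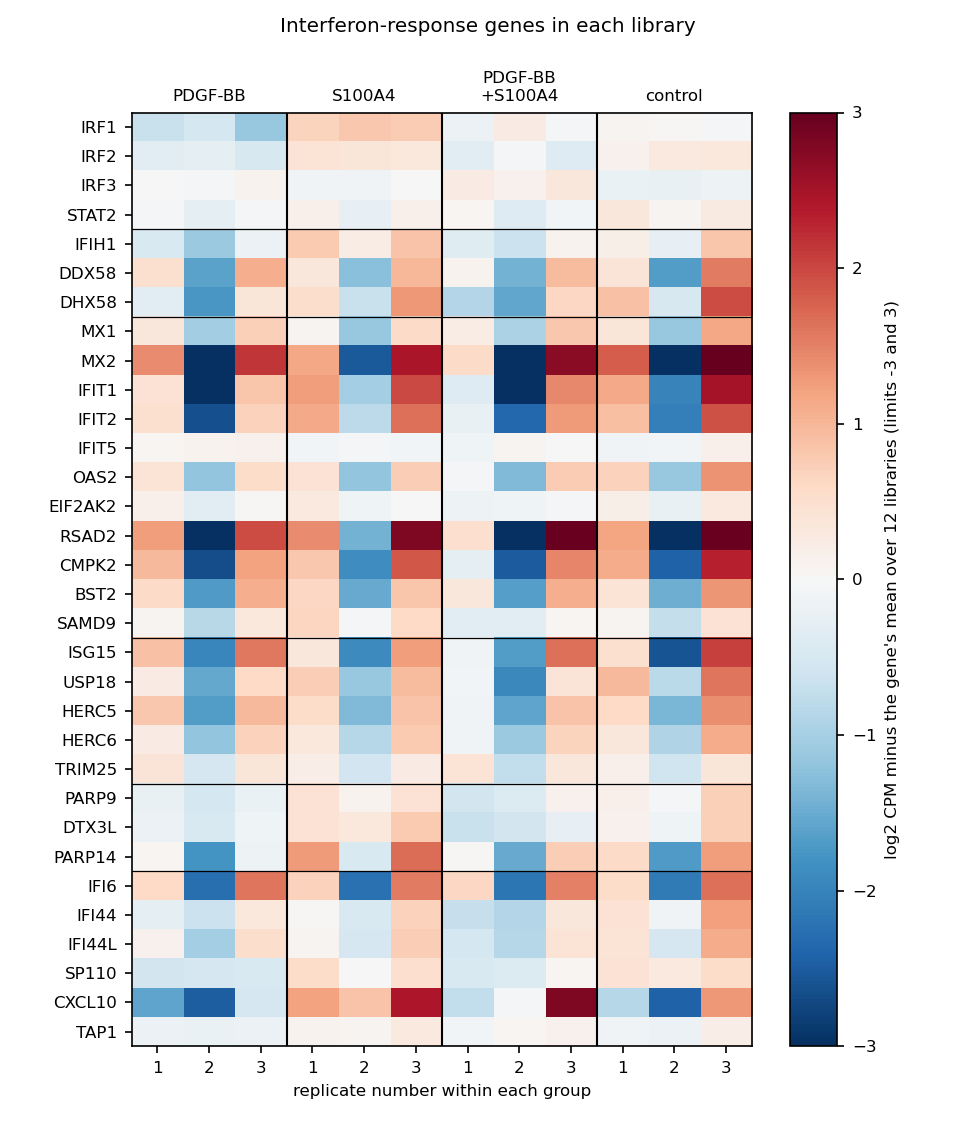
Heat map of log2 CPM of the 32 tested genes (rows, by role) in the 12 libraries (columns, 3 per group), as the difference from each gene's mean on a colour scale limited to −3 and 3. The replicate 2 columns are blue for most antiviral effectors in every group, control replicate 3 holds the highest value of 19 of 32 genes, and IRF1 is blue with PDGF-BB and red with S100A4.

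**Figure D2:**
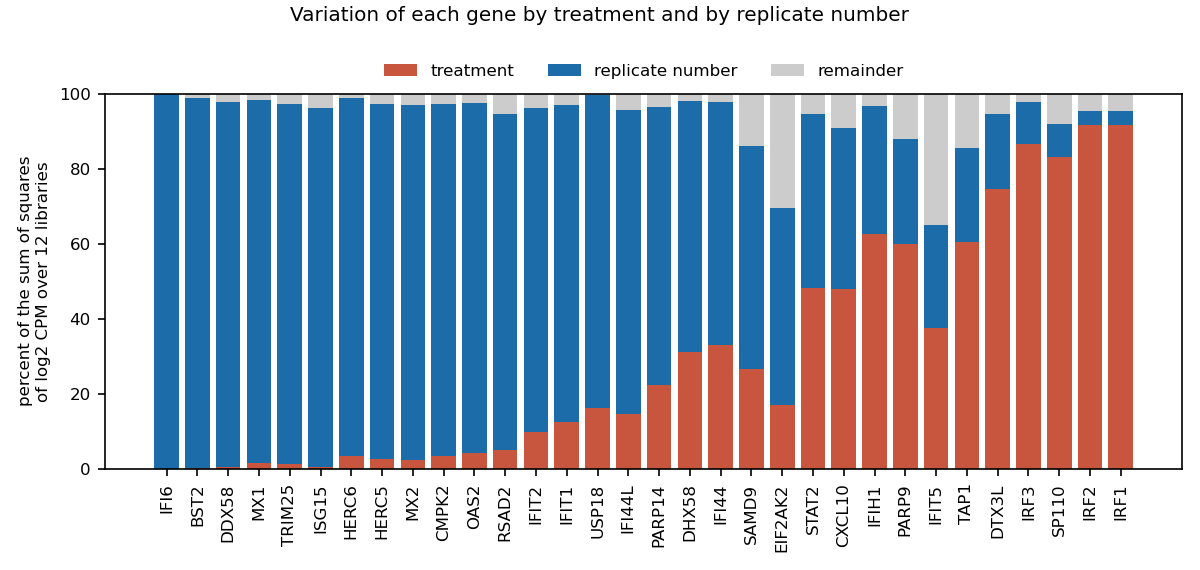
Percent of the sum of squares of log2 CPM over 12 libraries that treatment (red), replicate number (blue) and the remainder (grey) held, for each tested gene, in order of the replicate share. IFI6 stands at the left with 99.9% by replicate number and IRF1 at the right with 91.6% by treatment.

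Since replicate numbers paired the libraries, differences were tested both on the groups alone and with replicate number as a block, in edgeR's quasi-likelihood test with p-values adjusted over all 12444 genes. Log2 fold changes (± SE, n = 3 libraries per group) below come from the fit with the block unless the groups alone are named, and "called" means an adjusted p under 0.05.

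PDGF-BB lowered a large share of the interferon-response genes. With the block 19 of 32 were called lower, or 59.4%, where 24.5% of all tested genes were called lower, and 1 was called higher, IRF3, where 24.3% of all tested genes were. On the groups alone 3 were called lower, IRF1, IRF2 and SP110, against a background of 5.62% lower, and 0 higher, against 9.09%, with 7 of 32 at an unadjusted p under 0.05. The share of all tested genes at such an unadjusted p was not computed, here or below. The median log2 fold change of the 32 genes was −0.50 with the block and −0.53 on the groups alone, while that of all tested genes was −0.02. In same-numbered pairs 20 genes were lower in all 3 pairs, or 62.5% against 35.7% of all tested genes. Another 2 were higher in all 3, or 6.25% against 33.6%. The median difference was −0.29 in replicate 1, −0.29 in replicate 2 and −0.79 in replicate 3, largest in the pair that holds control replicate 3. The summed endothelial markers were also higher with PDGF-BB, at 121 to 220 CPM with PDGF-BB and 133 to 208 CPM with both, against 55.3 to 140 CPM in control. That difference lay in ERG, with 101, 142 and 111 CPM with PDGF-BB, against 35.7, 73.0 and 42.8 CPM in control, while PECAM1 had 3.68, 24.0 and 11.3 CPM with PDGF-BB, against 3.58, 19.8 and 10.2 CPM in control, and CDH5 had 15.3, 33.8 and 23.9 CPM with PDGF-BB, against 15.9, 32.2 and 23.6 CPM in control. The part of ERG in the result was not tested. The number called with the block was 11 without all replicate 3 libraries, 13 without PDGF-BB replicate 3 and 14 (2 higher, 12 lower) without control replicate 3. No gene was called on the groups alone without the replicate 1 libraries or without the replicate 3 libraries.

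Of the transcription factors, all 4 that could be tested were called with the block, 1 higher and 3 lower. Of all tested genes 24.3% were called higher and 24.5% lower. On the groups alone 2 of the 4 were called lower, against 5.62% of all tested genes. IRF1 had 19.7, 21.8 and 14.2 CPM with PDGF-BB, against 33.4, 32.3 and 30.2 CPM in control. The libraries did not overlap, and IRF1 fell by 0.80 ± 0.11 on the log2 scale (edgeR adjusted p = 2.84e-05 with the block, 0.00693 on the groups alone). IRF2 had 11.4, 12.1 and 10.4 CPM with PDGF-BB, against 15.9, 17.9 and 18.2 CPM in control, and changed by −0.61 ± 0.08 (edgeR adjusted p = 2.72e-05 with the block, 0.00309 on the groups alone). IRF3 moved the other way without overlap, with 47.3, 45.7 and 50.7 CPM with PDGF-BB, against 41.0, 40.5 and 42.4 CPM in control, a change of 0.21 ± 0.05 (edgeR adjusted p = 0.00177 with the block, 0.0728 on the groups alone). STAT2 had 23.9, 20.8 and 24.3 CPM with PDGF-BB, against 31.4, 26.3 and 29.7 CPM in control, and changed by −0.34 ± 0.06 (edgeR adjusted p = 0.000363 with the block, 0.148 on the groups alone). IRF7 and IRF9 were too low to test. IRF7 had 7, 6 and 9 counts with PDGF-BB, 1, 2 and 1 with S100A4, 6, 5 and 8 with both, and 1, 4 and 2 in control, and IRF9 had 0 to 5 counts in any library.

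Among the sensors of viral RNA, IFIH1 (also called MDA5) and DHX58 (also called LGP2) were lower with PDGF-BB, and DDX58 (RIG-I) did not pass. The 2 of 3 called with the block were 66.7%, against 24.5% of all tested genes. On the groups alone 0 were called, against 5.62% lower. IFIH1 had 7.85, 4.99 and 9.61 CPM with PDGF-BB, against 12.2, 9.09 and 19.3 CPM in control. The groups overlapped, but each pair fell, and the change was −0.84 ± 0.11 (edgeR adjusted p = 2.57e-05 with the block, 0.128 on the groups alone). DHX58 had 2.79, 1.01 and 4.61 CPM with PDGF-BB, against 6.60, 2.54 and 13.9 CPM in control, a change of −1.43 ± 0.15, or 2.69-fold lower (edgeR adjusted p = 2.7e-06 with the block, 0.303 on the groups alone). DDX58 had 48.1, 11.2 and 73.4 CPM with PDGF-BB, against 45.1, 10.7 and 101 CPM in control, with 1 of 3 pairs lower (−0.15 ± 0.13, edgeR adjusted p = 0.376 with the block).

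The antiviral effectors split. Of 11 tested, 5 were called lower with the block (MX2, IFIT1, IFIT2, OAS2 and CMPK2) and 0 on the groups alone. These shares of 45.5% and 0% stood against 24.5% and 5.62% of all tested genes. IFIT1, which binds viral RNA that lacks the host's cap methylation, had 15.6, 1.24 and 20.5 CPM with PDGF-BB, against 25.6, 2.81 and 65.2 CPM in control. It fell in each pair, and its log2 fold change was −1.22 ± 0.24 (edgeR adjusted p = 0.000868 with the block, 0.612 on the groups alone). The GTPase MX1 had 105, 40.1 and 137 CPM with PDGF-BB, against 107, 37.9 and 187 CPM in control. Its pairs differed by −0.03, 0.08 and −0.45 on the log2 scale, and MX1 did not pass (−0.16 ± 0.09, edgeR adjusted p = 0.16 with the block) unless control replicate 2 (0.00798) or all replicate 2 libraries (0.0119) were left out. IFIT5, EIF2AK2, RSAD2, BST2 and SAMD9 also did not pass, with log2 fold changes between −0.61 and 0.10.

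In the ISG15 system, USP18 and HERC6 were called lower with the block and ISG15, HERC5 and TRIM25 were not. These 2 of 5 were 40%, against 24.5% of all tested genes. On the groups alone 0 were called, against 5.62% lower. USP18, the protease that removes ISG15 from its targets and damps signalling at the interferon receptor, had 18.8, 5.41 and 24.0 CPM with PDGF-BB, against 30.8, 8.99 and 48.3 CPM in control. Its pairs changed by −0.71, −0.72 and −1.01, and the fitted change of −0.84 ± 0.08 had the smallest adjusted p of the 32 genes (edgeR adjusted p = 1.27e-06 with the block, 0.574 on the groups alone). ISG15 itself had 32.6, 4.56 and 53.2 CPM with PDGF-BB, against 24.7, 2.92 and 73.9 CPM in control, higher in 2 of 3 pairs (0.01 ± 0.21, edgeR adjusted p = 0.96 with the block).

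PARP9 and DTX3L, which act as a complex in ADP-ribosylation and ubiquitination, and PARP14 were all called lower with the block, by log2 fold changes of −0.60 ± 0.12, −0.53 ± 0.15 and −0.86 ± 0.19. On the groups alone 0 of these 3 were called. Of all tested genes 24.5% were called lower with the block and 5.62% on the groups alone. PARP9 had 7.65, 6.19 and 7.87 CPM with PDGF-BB, below all control values of 9.98, 8.61 and 14.7 CPM. Of the 6 other tested genes, IFI44, IFI44L, SP110 and TAP1 were called lower with the block, or 66.7%. On the groups alone 1 of the 6 was, SP110, or 16.7%. SP110 had 5.02, 5.21 and 5.35 CPM with PDGF-BB, against 9.98, 9.05 and 10.8 CPM in control, without overlap (−0.93 ± 0.12, edgeR adjusted p = 2.75e-05 with the block, 0.00668 on the groups alone). IFI44 had 6.64, 5.15 and 9.99 CPM with PDGF-BB, against 10.8, 7.43 and 18.9 CPM in control (−0.74 ± 0.10, edgeR adjusted p = 2.7e-05 with the block, 0.337 on the groups alone). TAP1, which carries peptides to MHC class I molecules, moved little, with a log2 fold change of −0.16 ± 0.06 (edgeR adjusted p = 0.0429 with the block).

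**Figure D3:**
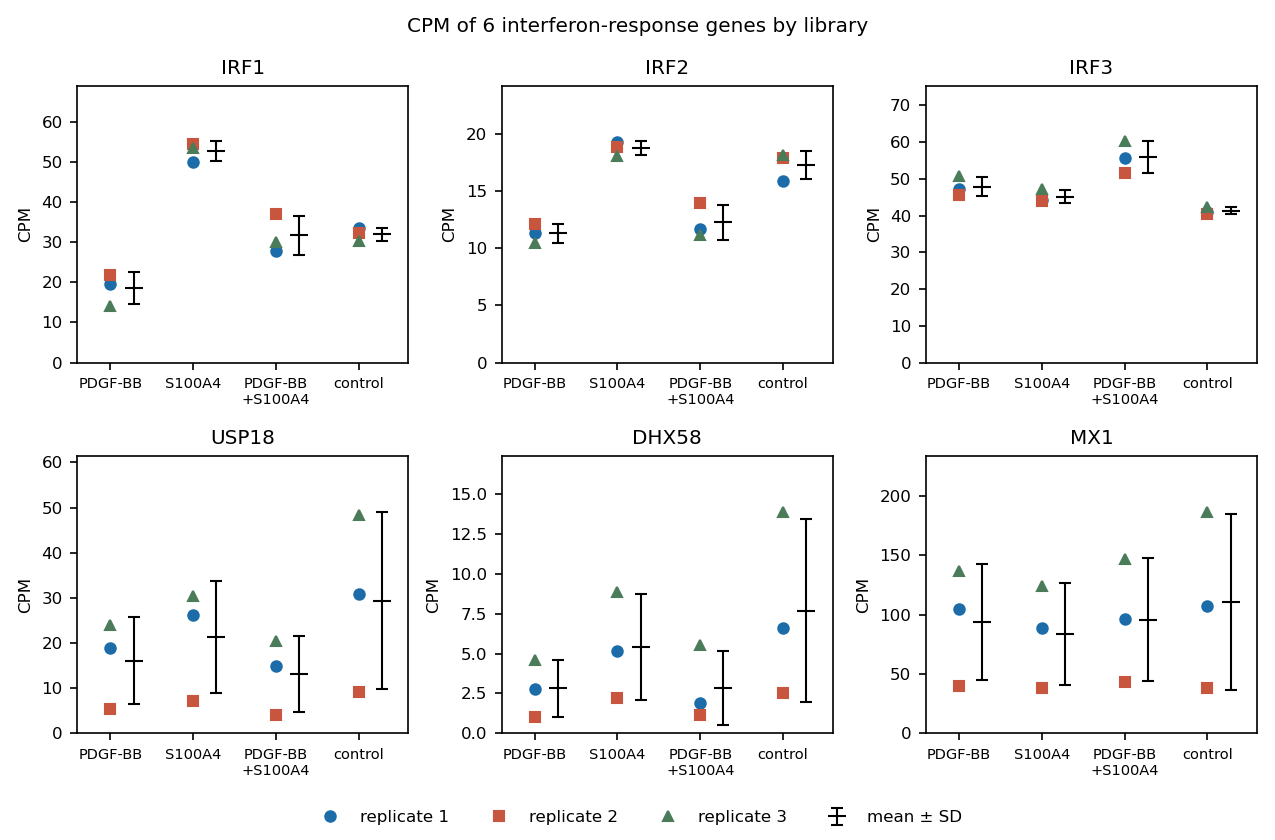
CPM of IRF1, IRF2, IRF3, USP18, DHX58 and MX1 in every library (points, by replicate number), with the mean and SD of each group (bars, n = 3). IRF1 sits between 14.2 and 21.8 CPM with PDGF-BB, between 49.9 and 54.6 CPM with S100A4 and between 30.2 and 33.4 CPM in control, while USP18, DHX58 and MX1 spread by replicate number in each group.

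S100A4 moved fewer of these genes than PDGF-BB did, and in both directions. With the block 5 of 32 were called higher (IRF1, IFIH1, SAMD9, PARP14 and CXCL10), or 15.6% against 6.46% of all tested genes. Another 5 were called lower (STAT2, DHX58, MX1, USP18 and IFI44), or 15.6% against 4.28%. On the groups alone 0 were called higher (0.554% of all tested genes) and 0 lower (0.00804%), with 1 of 32 at an unadjusted p under 0.05, and DESeq2 called 1. The median log2 fold change was −0.05 with the block, against −0.02 over all tested genes. The pairs differed in direction, as the median difference was 0.11 in replicates 1 and 2 and −0.26 in replicate 3, where 24 of 32 genes were lower. Values for single pairs were not computed over all tested genes. The number called with the block was 3, 7 and 6 without control replicates 1, 2 and 3, and 3, 4 and 5 without S100A4 replicates 1, 2 and 3. It was 2 without all replicate 1 libraries and 4 without all replicate 3 libraries.

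IRF1 had the smallest adjusted p of the 32 genes with S100A4. It had 49.9, 54.6 and 53.6 CPM with S100A4, against 33.4, 32.3 and 30.2 CPM in control. All S100A4 libraries lay above all control libraries, and IRF1 rose by 0.72 ± 0.10 on the log2 scale (edgeR adjusted p = 0.000232 with the block, 0.0918 on the groups alone). The call with the block held with any library left out. IRF2 (0.12 ± 0.08, edgeR adjusted p = 0.405 with the block) and IRF3 (0.13 ± 0.05, edgeR adjusted p = 0.108 with the block) did not pass. STAT2 had 27.5, 21.0 and 27.8 CPM with S100A4, against 31.4, 26.3 and 29.7 CPM in control (−0.20 ± 0.06, edgeR adjusted p = 0.0491 with the block), a call that no fit with a library left out kept.

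The other called genes rested on small or scattered changes. CXCL10, a chemokine that attracts T cells, had 17, 15 and 49 counts with S100A4, against 3, 0 and 17 counts in control. It was higher in all 3 pairs (1.94 ± 0.53, edgeR adjusted p = 0.0298 with the block), but lost its call without any one of 5 of the 6 libraries compared, S100A4 replicate 3 being the exception. PARP14 had 9.70, 2.86 and 12.9 CPM with S100A4, against 6.00, 1.19 and 9.57 CPM in control (0.67 ± 0.17, edgeR adjusted p = 0.019 with the block). IFIH1 had 18.8, 12.7 and 19.7 CPM with S100A4, against 12.2, 9.09 and 19.3 CPM in control (0.36 ± 0.10, edgeR adjusted p = 0.0337 with the block). SAMD9, an interferon-induced antiviral factor, had 33.7, 20.9 and 32.5 CPM with S100A4, against 22.7, 13.2 and 29.2 CPM in control (0.45 ± 0.13, edgeR adjusted p = 0.0441 with the block). PARP14, IFIH1 and SAMD9 thus rose in every pair, least in replicate 3, and each lost its call without control replicate 1 and without S100A4 replicates 1 or 2. IFIH1 and SAMD9 lost it also without control replicate 2, and PARP14 without S100A4 replicate 3.

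Among the genes called lower, USP18 had 26.2, 7.15 and 30.4 CPM with S100A4, against 30.8, 8.99 and 48.3 CPM in control (−0.43 ± 0.08, edgeR adjusted p = 0.00246 with the block), and its call was lost only without all replicate 3 libraries. IFI44 had 8.28, 5.83 and 13.0 CPM with S100A4, against 10.8, 7.43 and 18.9 CPM in control (−0.43 ± 0.10, edgeR adjusted p = 0.00956 with the block). DHX58 had 5.16, 2.20 and 8.86 CPM with S100A4, against 6.60, 2.54 and 13.9 CPM in control (−0.46 ± 0.14, edgeR adjusted p = 0.0423 with the block). MX1 had 88.4, 38.0 and 124 CPM with S100A4, against 107, 37.9 and 187 CPM in control (−0.32 ± 0.09, edgeR adjusted p = 0.035 with the block). IFI44, DHX58 and MX1 lost the call without control replicate 3, where most of the 32 genes were highest, and without S100A4 replicate 3. DHX58 and MX1 lost it also without replicate 1 of control or S100A4, and DHX58 without S100A4 replicate 2. ISG15 (−0.34 ± 0.22) and IFIT1 (−0.05 ± 0.23) had edgeR adjusted p of 0.379 and 0.923 with the block.

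With PDGF-BB and S100A4 together the genes again lay mostly below control. With the block 17 of 32 were called lower, or 53.1% against 28.6% of all tested genes, and 2 higher (IRF3 and CXCL10), against 27.5%. On the groups alone 3 were called lower (IRF2, SP110 and DTX3L), against 8.75%, and 1 higher (IRF3), against 13.2%. The median log2 fold change was −0.40 with the block, against −0.03 over all tested genes. With libraries left out the count with the block lay between 16 (without control replicate 3 or replicate 1 of the combination) and 25 (without all replicate 2 libraries). Without the block it was 0 without all replicate 1 libraries, 1 without all replicate 3 libraries, and 2 without control replicates 1 or 3 or the combined-treatment replicates 1 or 2.

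IRF1 did not differ from control beyond its error under the combination, with 27.9, 37.1 and 30.1 CPM with both, against 33.4, 32.3 and 30.2 CPM in control (−0.02 ± 0.10, edgeR adjusted p = 0.901 with the block). IRF3 was highest there, with 55.8, 51.6 and 60.2 CPM with both, against 41.0, 40.5 and 42.4 CPM in control, without overlap (0.43 ± 0.05, edgeR adjusted p = 2.54e-06 with the block, 0.0018 on the groups alone). IRF2 had 11.7, 14.0 and 11.2 CPM with both, against 15.9, 17.9 and 18.2 CPM in control (−0.49 ± 0.08, edgeR adjusted p = 0.000153 with the block, 0.00643 on the groups alone). STAT2 had 25.8, 18.9 and 23.5 CPM with both, against 31.4, 26.3 and 29.7 CPM in control (−0.37 ± 0.06, edgeR adjusted p = 0.00019 with the block, 0.103 on the groups alone). Thus IRF2 and STAT2 fell under the combination and IRF3 rose.

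USP18 had 14.8, 4.05 and 20.5 CPM with both, against 30.8, 8.99 and 48.3 CPM in control. It fell by 1.15 ± 0.08 on the log2 scale and by nearly the same amount in each pair, −1.06, −1.13 and −1.23 (edgeR adjusted p = 5.89e-08 with the block, 0.364 on the groups alone). DHX58 had 1.87, 1.15 and 5.52 CPM with both, against 6.60, 2.54 and 13.9 CPM in control (−1.42 ± 0.15, edgeR adjusted p = 2.41e-06 with the block). IFI44 had 4.96, 4.33 and 10.2 CPM with both, against 10.8, 7.43 and 18.9 CPM in control (−0.92 ± 0.10, edgeR adjusted p = 3.5e-06 with the block). IFIT1, with 8.79, 1.39 and 31.5 CPM with both, against 25.6, 2.81 and 65.2 CPM in control, was called lower too (−1.16 ± 0.24, edgeR adjusted p = 0.00102 with the block). These 4 genes fell in every pair, though none was called on the groups alone. MX1 (−0.13 ± 0.09) and ISG15 (−0.26 ± 0.21) did not pass, with edgeR adjusted p of 0.236 and 0.326 with the block. Without all replicate 2 libraries both did, at 0.00684 and 0.0431, and MX1 also without control replicate 2, at 0.0125. CXCL10 had 3, 7 and 57 counts with both, against 3, 0 and 17 in control (1.65 ± 0.54, edgeR adjusted p = 0.0191 with the block), and its edgeR adjusted p was 0.600 without replicate 3 of the combination and 0.176 without all replicate 3 libraries.

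**Figure D4:**
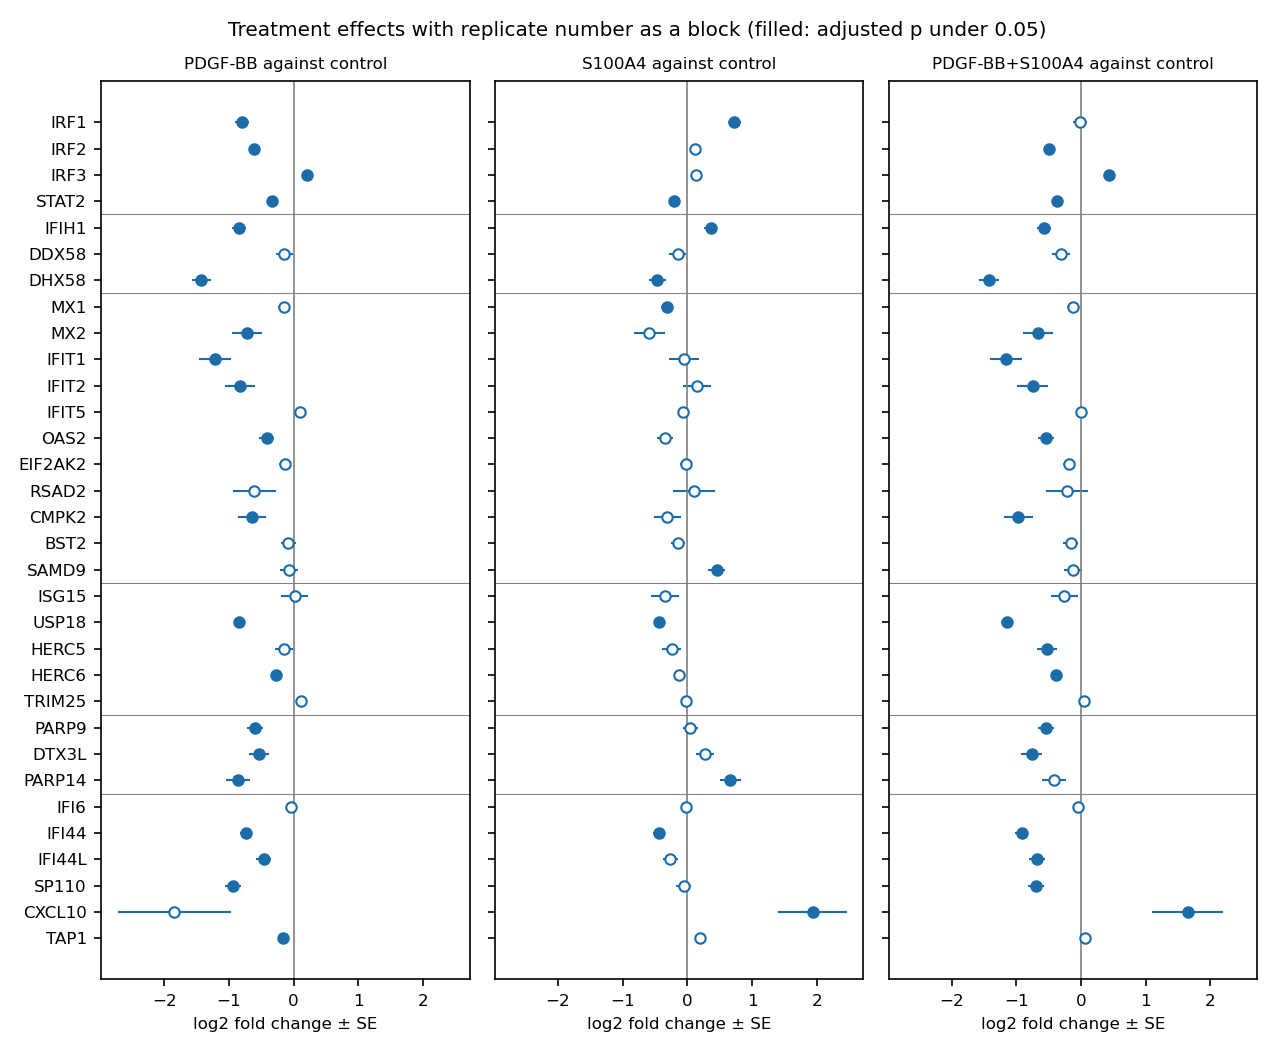
Log2 fold changes (points) with SE (bars) of the 32 tested genes against control, from the blocked fit, for PDGF-BB, S100A4 and both. Filled points have an adjusted p under 0.05: 20 genes with PDGF-BB, 10 with S100A4 and 19 with both, most of them left of 0 in the PDGF-BB and combined panels.

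The effect of PDGF-BB could be read a second time by setting the combination against S100A4 alone, groups that the first comparison did not hold. Both readings came from the same fit of all 12 libraries. They shared its estimate of the spread and its replicate block, so they were not independent. With the block 17 genes were called lower there, where 22.9% of all tested genes were, and 1 higher, IRF3, where 24.9% were. Groups alone gave 4 lower (5.51% of all tested genes) and 1 higher (9.45%). Of the 19 genes that PDGF-BB lowered against control 16 were also lowered here, which is 84.2% of the first list and 94.1% of the second. The same overlap over all tested genes was not computed, so these shares have no background beside them. MX2, OAS2 and TAP1 were called lower only in the first comparison and SAMD9 only in the second, and the differences between these calls were not tested beyond the interaction below. IFIH1 had 8.31, 6.91 and 11.7 CPM with both, against 18.8, 12.7 and 19.7 CPM with S100A4, and fell without overlap (−0.93 ± 0.11, edgeR adjusted p = 8.5e-06 with the block, 0.096 on the groups alone). The combination lowered IRF1 by 0.74 ± 0.10 relative to S100A4 (edgeR adjusted p = 3.2e-05 with the block, 0.0096 on the groups alone) and IRF2 by 0.61 ± 0.08 (edgeR adjusted p = 3.03e-05 with the block, 0.00341 on the groups alone). IRF3 was higher by 0.30 ± 0.05 (edgeR adjusted p = 8.84e-05 with the block, 0.0161 on the groups alone), and USP18 changed by −0.72 ± 0.09 (edgeR adjusted p = 1.23e-05 with the block). Without the block the count was 0 without all replicate 1 or all replicate 3 libraries, 2 without replicate 1 of the combination, and 3 without its replicate 2 or without S100A4 replicates 1 or 3.

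The S100A4 effect had such a second reading, again from the same fit, in the combination against PDGF-BB alone. With the block 4 genes were called higher (IRF1, IRF3, CXCL10 and TAP1), against 5.11% of all tested genes, and 1 lower (USP18), against 2.03%. On the groups alone 0 were higher (0.273%) and 0 lower (0%), with 3 of 32 at an unadjusted p under 0.05 and 1 called by DESeq2. IRF1 and CXCL10 were called higher in both readings, 40% of the first list and 50% of the second, and USP18 was called lower in both. Here too the overlap over all tested genes was not computed. IRF1 had 27.9, 37.1 and 30.1 CPM with both, against 19.7, 21.8 and 14.2 CPM with PDGF-BB, without overlap, a difference of 0.78 ± 0.11 (edgeR adjusted p = 0.000339 with the block, 0.108 on the groups alone). IRF3 was higher by 0.22 ± 0.05 (edgeR adjusted p = 0.00739 with the block) and USP18 changed by −0.31 ± 0.09 (edgeR adjusted p = 0.0491 with the block). The USP18 call was lost in every fit that left out a library, those of IRF3 and CXCL10 without replicate 3 of the combination, and that of CXCL10 also without PDGF-BB replicate 3. The number called with the block was 3, 3 and 1 without replicates 1, 2 and 3 of the combination, and 3, 3 and 2 without those of PDGF-BB. It was 2 without all replicate 1 libraries and 1 without all replicate 3 libraries.

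Set directly against PDGF-BB, S100A4 gave higher values for 15 genes with the block, where 20.6% of all tested genes were higher, and a lower value for 1, IFIT5, where 22.5% were lower. On the groups alone 4 were higher (IRF1, IRF2, IFIH1 and SP110), against 4.67%, and 0 lower, against 6.44%. IRF1 differed most firmly, at 49.9, 54.6 and 53.6 CPM with S100A4, against 19.7, 21.8 and 14.2 CPM with PDGF-BB (1.52 ± 0.10, 2.87-fold, edgeR adjusted p = 7.76e-08 with the block, 0.000407 on the groups alone). IFIH1 differed by 1.20 ± 0.11 (edgeR adjusted p = 9.46e-07 with the block, 0.0487 on the groups alone) and IRF2 by 0.73 ± 0.08 (edgeR adjusted p = 6e-06 with the block). IFIT5 had 59.8, 60.9 and 59.5 CPM with S100A4, against 65.2, 67.7 and 68.8 CPM with PDGF-BB, a small change without overlap (−0.16 ± 0.06, edgeR adjusted p = 0.0342 with the block, 0.26 on the groups alone). Its call was lost without any one of the 3 PDGF-BB libraries and without S100A4 replicates 2 or 3. The count on the groups alone was 0 without all replicate 1 libraries, 1 without all replicate 3 libraries and 2 without S100A4 replicate 1.

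The interaction asked whether S100A4 acted differently in the presence of PDGF-BB. No gene of the 32 was called higher or lower, on the groups alone (0% of all tested genes each way, and 0 of 32 at an unadjusted p under 0.05) or with the block (0.0161% higher and 0.0964% lower). DESeq2 and limma-voom with the block also called 0, and 1 gene was called with the block without the replicate 2 libraries. For IRF1 the interaction was 0.06 ± 0.14 on the log2 scale, small beside the single effects of −0.80 and 0.72. The replicates did not go the same way: the median interaction of the 32 genes was −0.33 in replicate 1, −0.01 in replicate 2 and 0.43 in replicate 3, with 29 of 32 below 0 in replicate 1 and 29 of 32 above 0 in replicate 3. The control replicate 3 library, where most of these genes were highest, enters the last of these values. Medians and counts for single replicates were not computed over all tested genes, so they have no background here.

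Several of these genes lie close together in the genome, and their values are given side by side, since differences between neighbours were not tested. On RefSeq positions of build Sscrofa11.1, IFIT2 (chr14:101193421-101204292), IFIT1 (chr14:101237403-101249486) and IFIT5 (chr14:101254818-101266105) lie close together. IFIT1 and IFIT2 spread 23.2- and 16.5-fold over the control replicates and were called lower with PDGF-BB, by −1.22 and −0.83 on the log2 scale, while IFIT5 spread 1.20-fold and changed by 0.10 ± 0.06 (edgeR adjusted p = 0.159 with the block). PARP14 (chr13:137809499-137865383), DTX3L (chr13:137950266-137961381) and PARP9 (chr13:137960987-138000862) lie together as well, and all 3 were called lower with PDGF-BB and higher with S100A4 set against PDGF-BB. RSAD2 (chr3:128880853-128897809) and CMPK2 (chr3:128903395-128917873), which are often induced as a pair, spread 113- and 29.1-fold over the control replicates. Their log2 fold changes with PDGF-BB were nearly equal, −0.61 ± 0.34 for RSAD2 (edgeR adjusted p = 0.153 with the block) and −0.65 ± 0.22 for CMPK2 (0.0235). RSAD2 had 8.06, 0 and 13.2 CPM with PDGF-BB, against 7.77, 0.237 and 26.8 CPM in control, and CMPK2 had 9.15, 0.684 and 10.9 CPM with PDGF-BB, against 10.2, 0.814 and 23.7 CPM in control. MX2 (chr13:204798633-204821612) changed by −0.73 ± 0.23 and its neighbour MX1 (chr13:204843049-204868927) by −0.16 ± 0.09. DTX3L and PARP9 overlap at their ends, so reads there may have been assigned to either or dropped.

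The rest of the interferon pathway was followed in 88 listed genes outside the 40, of which 69 had a row and 59 could be tested. Interferon genes themselves were hardly seen: IFNB1 had 0 to 4 counts per library and 12 in all, IFNE had 2 counts in all, and IFNK and IFNG had 0. With PDGF-BB 12 of the 59 were called higher and 18 lower with the block. These were 20.3% and 30.5%, near the 24.3% and 24.5% of all tested genes. On the groups alone 4 were called higher and 4 lower, or 6.78% each, against 9.09% and 5.62% of all tested genes. With S100A4 26 were called higher and 1 lower with the block, and 2 and 0 on the groups alone. The latter were 3.39% and 0%, against 0.554% and 0.00804% of all tested genes. With both 29 were called higher and 11 lower with the block, or 49.2% and 18.6% against 27.5% and 28.6% of all tested genes. Without the block these were 11 and 2, or 18.6% and 3.39% against 13.2% and 8.75%. The S100A4 calls came to 44.1% higher and 1.69% lower, where 6.46% and 4.28% of all tested genes were called, and the median log2 fold change of the 59 genes was 0.20 with S100A4, −0.05 with PDGF-BB and 0.21 with both.

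In the S100A4 libraries 4 of 5 tested receptor genes were called higher with the block, as were 5 of 7 antigen presentation genes, and 1 of each list on the groups alone. Of all tested genes 6.46% were called higher with the block and 0.554% on the groups alone. IFNAR2, a chain of the type I interferon receptor, had 83.8, 79.1 and 93.6 CPM with S100A4, against 31.9, 37.6 and 27.8 CPM in control. Each S100A4 library lay above each control library, and IFNAR2 rose by 1.40 ± 0.10 on the log2 scale (edgeR adjusted p = 3.03e-07 with the block, 0.000859 on the groups alone). Under the combination it had 50.7, 61.1 and 60.6 CPM (0.82 ± 0.10 over control, edgeR adjusted p = 7.59e-06 with the block), and with PDGF-BB alone 25.9, 30.2 and 25.2 CPM (−0.27 ± 0.10, edgeR adjusted p = 0.0428 with the block). IFNGR2, a chain of the interferon gamma receptor, had 149, 111 and 132 CPM with S100A4, 119, 90.1 and 106 CPM with both, and 83.0, 56.6 and 70.1 CPM in control. It rose by 0.91 ± 0.05 with S100A4 (edgeR adjusted p = 1.31e-08 with the block, 0.0934 on the groups alone) and by 0.59 ± 0.05 with both (edgeR adjusted p = 1.32e-07 with the block, 0.0524 on the groups alone). IFNAR1 and IFNGR1 changed by 0.56 ± 0.07 and 0.38 ± 0.07 with S100A4 (edgeR adjusted p = 0.000131 and 0.00177 with the block, 0.752 and 0.0915 on the groups alone). IFNLR1, a chain of the interferon lambda receptor, was the fifth, at 2.22, 0.811 and 1.37 CPM with S100A4, against 2.45, 0.780 and 2.26 CPM in control, and did not pass with S100A4. It was called lower with PDGF-BB (−1.11 ± 0.24, edgeR adjusted p = 0.00164 with the block, 0.315 on the groups alone) and with both (−1.95 ± 0.28, edgeR adjusted p = 4.51e-05 with the block, 0.0726 on the groups alone). These IFNLR1 calls rested on few counts, with 22, 12 and 37 with PDGF-BB and 17, 3 and 13 with both, against 61, 23 and 48 in control.

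**Figure D5:**
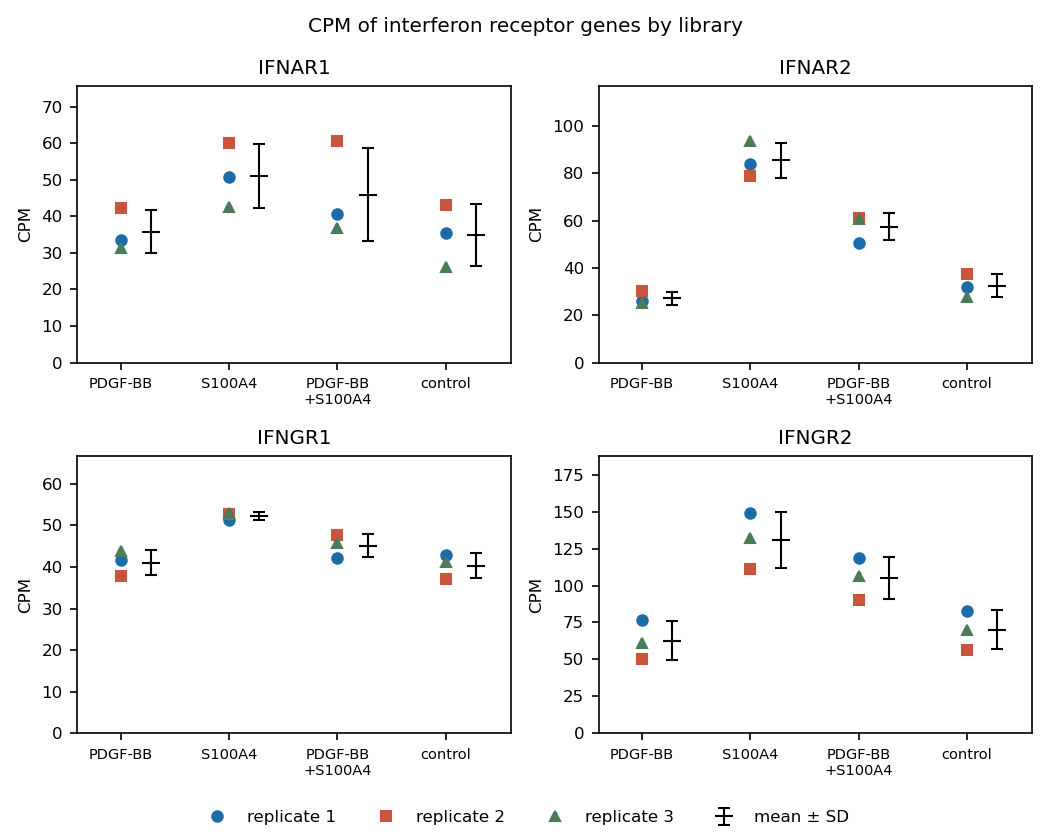
CPM of IFNAR1, IFNAR2, IFNGR1 and IFNGR2 in every library (points, by replicate number), with the mean and SD of each group (bars, n = 3). IFNAR2 lies between 79.1 and 93.6 CPM with S100A4 and between 27.8 and 37.6 CPM in control, with the combination between these ranges.

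Some other pathway genes moved, with replicates closer in level than in most antiviral effectors. The share of variation by replicate number was not computed for pathway genes. TICAM1, the adaptor of TLR3, had 45.0, 51.5 and 53.5 CPM with PDGF-BB, 64.5, 64.5 and 76.0 CPM with both, and 24.2, 29.1 and 27.8 CPM in control. It rose by 0.89 ± 0.08 with PDGF-BB (edgeR adjusted p = 4.64e-07 with the block, 0.00146 on the groups alone) and by 1.34 ± 0.08 with both (edgeR adjusted p = 5.02e-09 with the block). MAVS, the adaptor of the RNA sensors, fell to 44.3, 45.6 and 46.2 CPM with PDGF-BB, against 57.3, 53.3 and 63.5 CPM in control (−0.35 ± 0.05, edgeR adjusted p = 5.71e-05 with the block, 0.00865 on the groups alone). PSMB10, a subunit of the immunoproteasome, had 17.3, 22.0 and 17.2 CPM with S100A4, against 10.7, 11.0 and 11.4 CPM in control (0.77 ± 0.08, edgeR adjusted p = 3.15e-05 with the block, 0.0424 on the groups alone). PTPN2, a phosphatase that acts on JAK and STAT proteins, had 22.2, 25.6 and 24.2 CPM with both, against 14.7, 17.3 and 14.3 CPM in control (0.63 ± 0.06, edgeR adjusted p = 1.28e-06 with the block, 0.00145 on the groups alone). The libraries of these genes did not overlap between the groups compared. TOR1B changed by 0.36 ± 0.05 with PDGF-BB and 0.53 ± 0.05 with both, and ZNFX1 by 0.33 ± 0.04 with S100A4, all called with the block, ZNFX1 not on the groups alone (edgeR adjusted p = 0.903). GBP1, an interferon-induced GTPase, had 5.95, 3.00 and 6.77 CPM with PDGF-BB, against 9.50, 5.59 and 15.7 CPM in control (−0.95 ± 0.12, edgeR adjusted p = 2.44e-05 with the block, 0.216 on the groups alone). It was lowest in replicate 2 and highest in replicate 3 in both groups. Further pathway genes differed widely between the control replicates, such as LGALS3BP with 94.6, 26.7 and 144 CPM and DDX60 with 2.53, 0.441 and 7.40 CPM.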

How the data were processed

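RNA of 12 libraries was sequenced as single-end reads of 100 nt, with TruSeq libraries on a HiSeq4000, per the labels' protocols. The authors deposited raw counts per gene; the submitters' processing notes name CASAVA 1.8.2, STAR 2.4, featureCounts 1.4.6 and build Sscrofa11.1, with no settings. Whether counting used strand is not given in the sources used here. Symbols were taken from an Ensembl table (14572 of 21153 IDs matched) and positions from RefSeq (36 of 37 genes).

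With edgeR 4.0.16 in R 4.3.3, low genes were removed by filterByExpr (by group, minimum count 10) and the rest scaled by TMM and tested two-sided with the quasi-likelihood test over all 12 libraries, with Benjamini-Hochberg adjustment over 12444 genes. SE is the log2 fold change divided by the root of F. Log2 CPM used a prior count of 2. Same-numbered libraries deviated together (r of 0.746 to 0.908 in 18 pairs; −0.676 to 0.136 in 36 pairs with different numbers), so the numbers were taken as pairing the libraries, from the data and not the labels; blocking on them took edgeR's common coefficient of variation to 5.14%, against 27.2% for the groups alone. No 2 libraries of a group agreed within sampling noise (chi-square per gene of 18.4 to 129).

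The fits were also run on counts simulated from the blocked fit itself, which cannot show that the calls hold in the real libraries. Alternatives were DESeq2 1.42.0, limma-voom (limma 3.58.1), other scaling and filters, and leaving out libraries. The genes and lists were chosen with earlier results of these data known. Named genes were IRF1, IRF7, IRF9, STAT2, MX1, ISG15 and IFIT1, plus, per direction, up to 4 (3 between treatments) with the smallest p with the block among those that passed in either fit and moved alike in all 3 pairs, and up to 4 pathway genes per comparison with control. A part of that rule on promoter motifs was not used. Other genes given with values (such as DDX58, IFI6, MX2, SP110, RSAD2, IFIT5 and IFNLR1) were chosen after their values were seen. Depth limits the lowest genes: IRF7, IRF9, OASL, ISG20 and UBA7 had at most 9 counts in a library and were not tested.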

Additional observations from a re-analysis of the deposited data

How the results depend on the processing

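The 6 counts of called genes changed most with the pairing. With replicate number as a block they were 20 (PDGF-BB against control), 10 (S100A4 against control), 19 (both against control), 5 (both against PDGF-BB), 18 (both against S100A4) and 16 (S100A4 against PDGF-BB), and with no replicate block 3, 0, 4, 0, 5 and 4. Without the block DESeq2 gave 1 for S100A4 against control and 1 for both against PDGF-BB. Fitting only the groups compared gave 1 for S100A4 against control, 2 for both against control, 3 for both against S100A4 and 2 for S100A4 against PDGF-BB. Over fits with libraries left out, the counts on the groups alone lay between 0 and 4 (PDGF-BB), 0 and 0 (S100A4), 0 and 5 (both), 0 and 0 (both against PDGF-BB), 0 and 7 (both against S100A4) and 0 and 5 (S100A4 against PDGF-BB). With the block they lay, in the same order, between 11 and 22, 2 and 10, 16 and 25, 1 and 6, 13 and 20, and 13 and 18, and the interaction count was 0 to 1. Other scaling and filters left every count within 1.5 times.

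Directions turned for 7 genes. On the groups alone ISG15 was 0.318 with limma-voom and 0.0150 with the replicate block under PDGF-BB, 0.0640 with limma-voom under S100A4 and 0.103 with limma-voom under both, on the log2 scale, and IFIT1 was 0.338 with limma-voom under S100A4. With the block, ISG15 under PDGF-BB was −0.164 with no replicate block, −0.0718 with limma-voom and −0.0375 with upper-quartile scaling, and IFIT1 under S100A4 was 0.224 with DESeq2. With libraries left out on the groups alone, ranges were −0.647 to 0.372 (MX1) and −0.865 to 1.13 (ISG15) under PDGF-BB. Under S100A4 they were −0.816 to 0.202 (MX1), −1.31 to 0.762 (ISG15), −0.905 to 0.890 (IFIT1), −0.896 to 0.0960 (USP18) and −1.06 to 0.245 (DHX58). Under both they were −0.143 to 0.101 (IRF1), −0.662 to 0.397 (MX1), −1.62 to 0.923 (ISG15) and −0.496 to 3.96 (CXCL10), and −0.772 to 0.136 for USP18 in both against PDGF-BB. With the block, MX1 and ISG15 ranged from −0.271 to 0.0182 and −0.241 to 0.449 under PDGF-BB. ISG15 and IFIT1 ranged from −0.512 to 0.0983 and −0.240 to 0.397 under S100A4. IRF1, MX1 and ISG15 ranged from −0.127 to 0.0993, −0.247 to 0.0301 and −0.431 to 0.0926 under both. The cause was not tested. Of the named genes' alternative values, 834 on the groups alone and 597 with the block kept direction and call; 28 and 22 turned, 51 and 117 lost the call, and 48 and 5 gained it.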
